A study of Rattus norvegicus with 12 samples.

Results

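The testis of adult male Sprague Dawley rats that carry a human DNMT3A transgene (labelled hDNMT3A) was compared with the testis of wild-type rats of the same strain, sex and age, 15 weeks. The comparison covered every gene whose FPKM averaged 1 or more across the 6 testis libraries, which were 14572 of the 25908 genes listed. FPKM is a read count divided by gene length and by the size of the library. Each genotype had 3 testis libraries, and the other 6 of the 12 libraries, from brain, served only as a reference. The labels name no agent or second allele in either group. They give neither the promoter of the transgene nor the founder line, and they do not say whether animals were pooled. Nor do they say whether the libraries of a group came from separate rats, and the p-values therefore reflect the spread among these libraries, which may be technical.

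DNMT3A is a de novo DNA methyltransferase, an enzyme that adds methyl groups to cytosines, mainly in CpG pairs, that carried none before. In the male germ line, de novo methylation is laid down in the precursors of spermatogonia with the help of the cofactor DNMT3L, and it is best known there for silencing transposons and marking imprinted genes. Dense methylation of a CpG-rich promoter is usually associated with a silent gene, while methylation inside gene bodies is often found in active genes. Bulk testis RNA comes from germ cells at every stage of spermatogenesis and from Sertoli, Leydig, peritubular and other somatic cells. In such RNA, fewer cells of a type and less RNA per cell cannot be told apart.

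All 25908 identifiers were rat Ensembl gene identifiers, listed without names, and the reference table of 47357 genes used for names matched 0 of them. The level of the human transgene, that of rat Dnmt3a, the markers of testis cell types and the promoter sequences of the genes were therefore not analysed here. Genes are given below by their values and by the gene length behind each FPKM value, called the counted length. Identifiers are printed for the called genes with the 2 largest increases and the 2 largest decreases on log2(FPKM + 0.5).

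The 6 testis libraries held between 14576668 and 16112149 recovered reads and were close to each other in content. On log2(FPKM + 0.5) across the tested genes, the correlation was 0.982 to 0.983 between wild-type libraries, 0.976 to 0.983 between transgenic ones and 0.971 to 0.977 across genotypes, against 0.25 to 0.40 with brain libraries. Transgenic replicate 3 stood somewhat apart, at 0.976 and 0.978 with the other transgenic libraries, which correlated at 0.983 with each other. The median SD of a gene was 0.115 on the log2 scale within wild type and 0.144 within transgenic testis. Over transgenic replicates 1 and 2 alone it was 0.097, but an SD of 2 values tends to come out lower than one of 3. The mean chi-square per gene was 5.69 between transgenic replicates 1 and 2, against 5.11 to 5.39 between wild-type libraries. Between transgenic replicate 3 and replicates 1 and 2 it was 14.9 and 9.78.

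Most testis transcripts differed little between the genotypes. Of the 14572 genes, 84 (0.576%) were called by limma at a Benjamini-Hochberg adjusted p under 0.05, 38 of them (0.261%) higher and 46 (0.316%) lower in transgenic testis. The median log2 difference of all tested genes, transgenic minus wild type, was 0.02. The 95% interval of the difference lay within 2-fold in either direction for 89.8% of the tested genes and within 0.5 on the log2 scale for 61.5%.

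At an unadjusted p under 0.05 there were 879 genes higher (6.03%) and 739 lower (5.07%) in transgenic testis. This excess of higher genes turned with the scaling, to 771 higher and 835 lower after median-ratio scaling and to 789 and 840 after quantile normalization. The 3 libraries of a genotype lay entirely on one side of the other 3 for 2577 genes (17.7%), 1448 higher (9.94%) and 1129 lower (7.75%). If every order of the 6 libraries were equally likely, a gene would separate this way with a probability of 0.1 over both directions. Separation alone therefore does not mark a gene as different. All 84 called genes were among the 2577, and in each of the 84 the gap between the groups on the log2 scale was wider than the larger of the ranges within a group. The genes were called on these same values, so this separation describes the calls and is no further evidence for them.

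**Figure D1:**
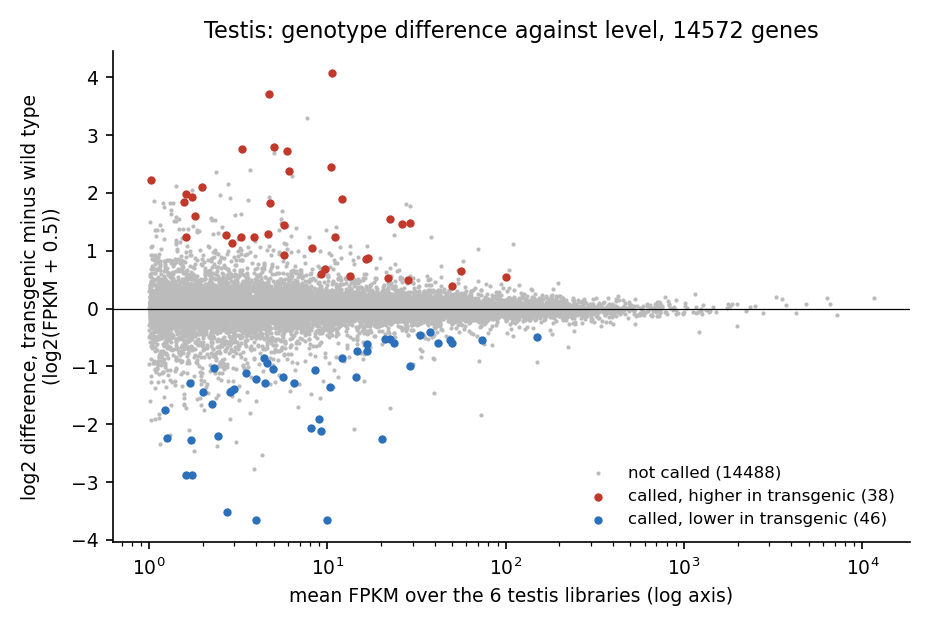
Log2 difference in testis, transgenic minus wild type, on log2(FPKM + 0.5) (vertical axis) against the mean FPKM over the 6 testis libraries (horizontal, log axis), with 1 point per tested gene. The 38 genes called higher (red) and the 46 called lower (blue) lie mostly under 100 FPKM, with larger differences at low levels, and the other 14488 genes (grey) surround 0.

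Genes were called at every level of expression. The share called was 0.61% of the 2294 genes at 1 to 2 FPKM, 0.694% of 3169 at 2 to 5, 0.589% of 4754 at 5 to 20 and 0.55% of 3274 at 20 to 100 FPKM. Of the 1081 genes above 100 FPKM, 2 were called (0.185%). The size of a called difference fell with the level, from a median of 1.96 on the log2 scale at 1 to 2 FPKM to 0.57 at 20 to 100 FPKM. The median standard error fell as well, from 0.219 to 0.076 in the same classes.

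The genes called higher had a median level of 2.29 to 2.73 FPKM in the wild-type libraries and of 9.86 to 11.5 FPKM in the transgenic ones. Their log2 differences ran from 0.38 to 4.07 with a median of 1.37, and 27 of the 38 differed by at least 2-fold and 9 by at least 4-fold on this scale, against 28 and 14 by the ratio of reads scaled to depth. In 11 of them the wild-type mean was under 1 FPKM. Together they made up 0.063% of the summed FPKM in wild-type replicate 1, 0.0625% in replicate 2 and 0.0637% in replicate 3, and 0.124%, 0.133% and 0.128% in the transgenic libraries. The transgenic library nearest to wild type was replicate 3 in 17 of the 38 genes, replicate 1 in 14 and replicate 2 in 7.

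The genes called lower had a median level of 9.39 to 10.6 FPKM in the wild-type libraries and of 2.93 to 3.28 FPKM in the transgenic ones. Their log2 differences ran from -3.66 to -0.40 with a median of -1.20, and 29 of the 46 differed by at least 2-fold and 11 by at least 4-fold on this scale, against 31 and 14 by the ratio of reads. In 11 of them the transgenic mean was under 1 FPKM. Their share of the summed FPKM was 0.172%, 0.18% and 0.178% in the wild-type libraries and 0.1%, 0.1% and 0.0971% in the transgenic ones. The transgenic libraries took the place nearest to wild type about equally often, in 17, 17 and 12 genes for replicates 1, 2 and 3. Since these genes were chosen by the difference itself, such values describe them and test nothing.

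**Figure D2:**
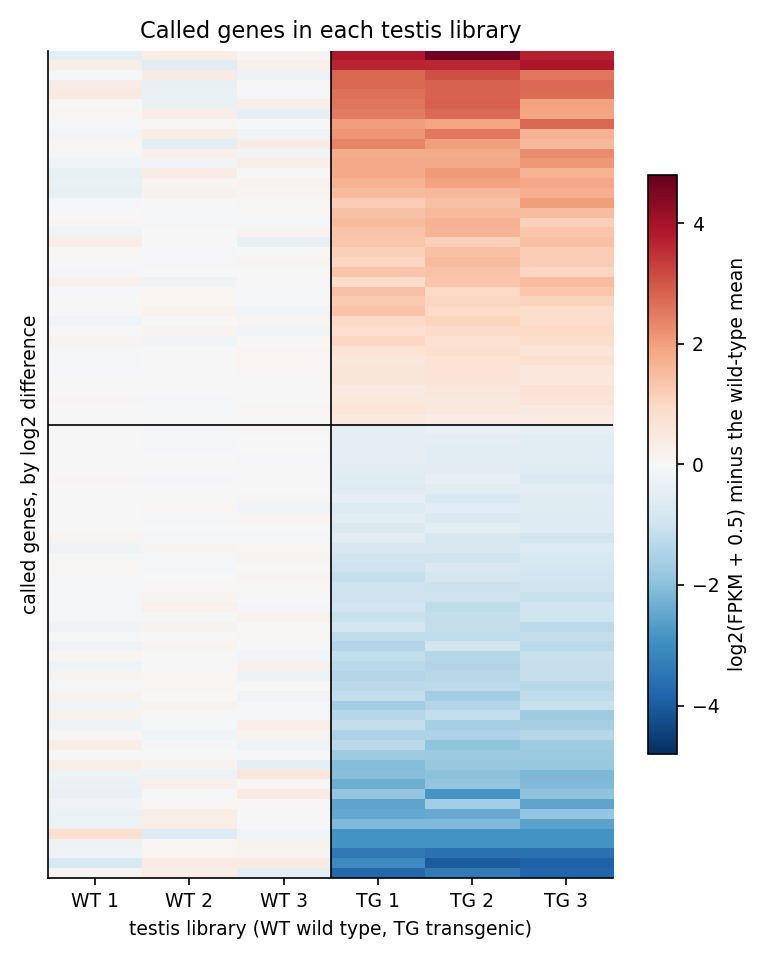
Level of the 84 called genes in each testis library, as log2(FPKM + 0.5) minus the mean of the 3 wild-type libraries (red, above that mean; blue, below it), with 1 row per gene ordered by log2 difference. The 38 genes called higher stand above the horizontal line and the 46 called lower below it, and the 3 transgenic libraries lie on the same side of wild type in every row.

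On log2(FPKM + 0.5) the largest called increase was that of ENSRNOG00000052627, a gene of 1238 counted bases. It stood at 0.372, 0.997 and 0.81 FPKM in the wild-type libraries (7, 18 and 16 reads) and at 16.7, 30.1 and 15.0 FPKM in the transgenic ones (311, 552 and 299 reads). Every transgenic library was far above every wild-type one, and transgenic replicate 2 was the highest. The means were 0.726 ± 0.321 and 20.6 ± 8.26 FPKM (SD, n = 3), and the ratio of reads scaled to depth was 28.2 (95% counting interval 20.6 to 39.5). The log2 difference was 4.07 (SE 0.30, limma adjusted p = 0.0036). The brain libraries held 0, 0 and 0 reads of this gene in wild type and 1, 0 and 1 in transgenic rats, which is at or under the floor of 3 reads over a group.

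ENSRNOG00000061943, of 335 counted bases, came next on this scale. It had 2, 0 and 2 reads in the wild-type libraries (0.393, 0 and 0.374 FPKM) and 44, 42 and 55 reads in the transgenic ones (8.71, 8.45 and 10.2 FPKM). The transgenic libraries were close to each other and none approached wild type. The log2 difference was 3.71 (SE 0.25, limma adjusted p = 0.0035). With so few wild-type reads the read ratio of 35 is loosely bounded, with a counting interval from 13.4 to 130. The order of the 2 genes turned with a pseudocount of 0.1 (5.01 for this gene against 4.66 for ENSRNOG00000052627) and with voom on the recovered reads (4.99 against 4.81). By read ratio the highest of the called increases was that of a gene of 1792 counted bases, at 84 on 2 wild-type reads (counting interval 22.9 to 699). It also had the largest of these 3 differences with voom, 5.68. Its call was lost without wild-type replicate 1, 2 or 3 and with a replicate term in the fit (adjusted p of at most 0.103). Without transgenic replicate 1, 2 or 3 its mean no longer reached the filter, so no fit without 1 library called it. In brain ENSRNOG00000061943 had 1 read in each wild-type library and 12, 14 and 12 reads in the transgenic ones.

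On log2(FPKM + 0.5) the largest called decrease was that of ENSRNOG00000038512, of 747 counted bases. Its wild-type libraries stood at 8.45, 9.46 and 5.45 FPKM (96, 103 and 65 reads) and its transgenic ones at 0.0888, 0.271 and 0.0831 FPKM (1, 3 and 1 reads). The transcript was thus near the limit of detection in all 3 transgenic libraries. The read ratio of wild type to transgenic was 53.1 (counting interval 22.5 to 165), and the log2 difference was -3.66 (SE 0.24, limma adjusted p = 0.0035). It was not the largest on other scales: with a pseudocount of 0.1 it stood at -5.04 against -5.59 for a gene of 1333 counted bases, and with voom at -5.45 against -7.27 for that gene and -8.38 for a gene of 3398 counted bases, both described below. No read of it was found in any brain library, which allows up to 3 reads over a group.

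ENSRNOG00000013389, of 516 counted bases, came next on log2(FPKM + 0.5). It stood at 10.3, 23.1 and 22.9 FPKM in the wild-type libraries (81, 174 and 189 reads) and at 1.67, 0.653 and 0.722 FPKM in the transgenic ones (13, 5 and 6 reads). Wild-type replicate 1 was the lowest of the wild-type libraries but well above every transgenic one. The log2 difference was -3.65 (SE 0.37, limma adjusted p = 0.012). The adjusted p rose to 0.0657 without wild-type replicate 2 and to 0.0525 without wild-type replicate 3, which ended the call. In brain the same gene stood at 50.0 ± 3.94 FPKM in wild-type and 53.6 ± 7.93 FPKM in transgenic rats (SD, n = 3), with 357 to 468 reads per library and a log2 difference of 0.09 (limma adjusted p = 0.93).

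**Figure D3:**
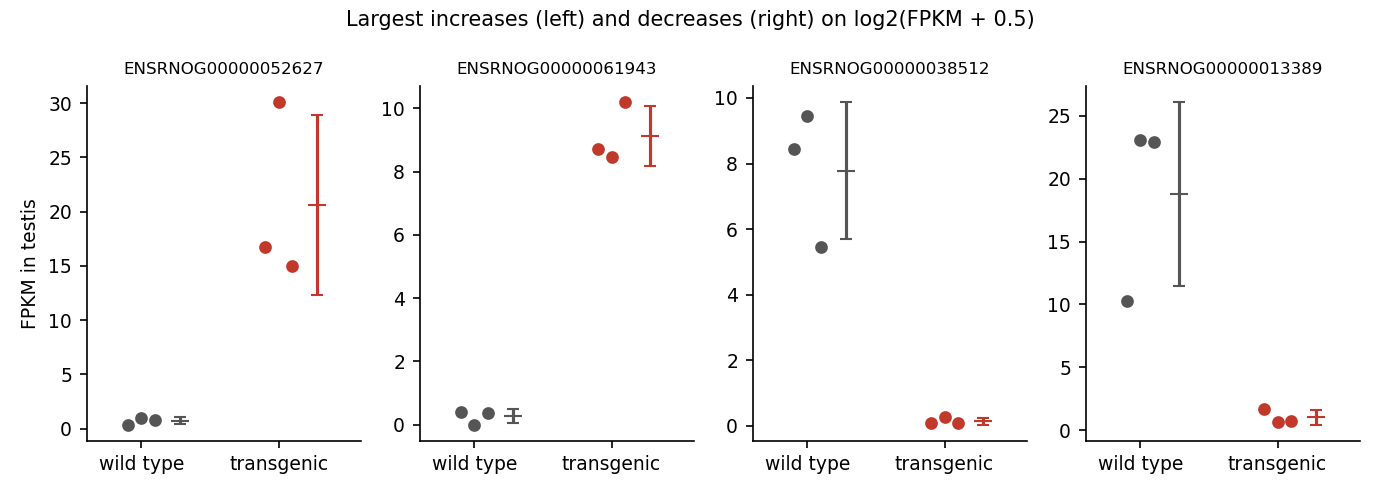
FPKM in testis of the 2 genes with the largest called increases and the 2 with the largest called decreases on log2(FPKM + 0.5), each library drawn as a point (wild type in grey, transgenic in red) beside the mean ± SD of its group of 3. The transgenic libraries lie between 8.45 and 30.1 FPKM for the increases and between 0.0831 and 1.67 FPKM for the decreases, and the groups do not overlap in any panel.

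Some transcripts were not detected at all in one genotype. Over all 25908 genes, 2 had 0 reads in every transgenic testis library and at least 10 reads in every wild-type one, and 0 genes showed the opposite pattern. A gene of 3398 counted bases had 136, 168 and 195 reads in the wild-type libraries (2.63, 3.39 and 3.59 FPKM) and no read in the transgenic ones. Against the floor of 3 reads over the transgenic group, wild type was at least 167-fold higher. It was also without a read in the 3 transgenic brain libraries, where wild type had 126, 97 and 111 reads. The call held in all 16 alternatives that tested this gene.

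The other gene, of 550 counted bases, varied more in wild type, with 48, 15 and 25 reads (5.74, 1.87 and 2.85 FPKM), and was at least 29.5-fold higher there than the floor. Its limma adjusted p of 0.023 rose to 0.0506 with no filter on low values and to between 0.0542 and 0.0894 without wild-type replicate 3 or without transgenic replicate 1, 2 or 3. Without wild-type replicate 1 its mean no longer reached the filter. A gene of 1333 counted bases came close to the same pattern, with 94, 112 and 127 reads in wild type and 1, 0 and 0 in transgenic testis. Its read ratio was 335, with a counting interval from 59.7 to 13300, and its log2 difference was -3.52 (SE 0.18, limma adjusted p = 0.0012).

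In the opposite direction, 9 called genes rose by at least 4-fold on log2(FPKM + 0.5), against 14 by the ratio of reads. Of the 9, 3 serve as examples of a rise from a low wild-type level to similar levels in all transgenic libraries. A gene of 529 counted bases went from 0.746, 0.259 and 0.474 FPKM to 6.02, 6.37 and 5.98 FPKM, an increase of 2.77 on the log2 scale (SE 0.20, limma adjusted p = 0.0035). A gene of 1449 counted bases went from 1.23 ± 0.478 to 10.7 ± 0.839 FPKM (SD, n = 3). A gene of 1519 counted bases went from 0.779, 1.31 and 0.619 FPKM to 8.73, 11.3 and 7.44 FPKM. None of the 3 had overlapping groups, and each was called without every library in turn. Their means in brain were all under 1 FPKM in both genotypes.

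The abundant called genes changed by less. The highest, of 1705 counted bases, stood at 178, 169 and 180 FPKM in wild type and at 127, 122 and 124 FPKM in transgenic testis (4191 to 4907 and 3093 to 3396 reads). The libraries within each genotype were tight, and the log2 difference was -0.50 (SE 0.05, limma adjusted p = 0.011). The call was lost in 6 of its 17 alternatives, among them those without wild-type replicate 1, 2 or 3 or transgenic replicate 2 (adjusted p of at most 0.499 over the 17). The most abundant gene called higher, of 822 counted bases, rose from 83.7, 81.5 and 79.8 FPKM to 109, 118 and 133 FPKM, with a log2 difference of 0.55 (SE 0.08, limma adjusted p = 0.035) that 8 of 17 alternatives no longer called, among them those without wild-type replicate 1, 2 or 3 or transgenic replicate 2 (adjusted p of at most 0.404 over the 17).

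The calls depended on the libraries fitted. Without wild-type replicate 1, 2 and 3 there were 41, 20 and 37 calls, of which 29, 18 and 26 were among the 84. Without transgenic replicate 1, 2 and 3 there were 80, 47 and 72 calls, of which 50, 38 and 48 were among the 84. In each of these 6 fits the same 17 genes were called, 9 higher and 8 lower, and 19 of the 84 were called in none of them. The 17 had a median log2 difference of 2.25 in size (0.87 to 4.07), against 1.22 for the other 67. Of the genes described above, the 17 included ENSRNOG00000052627, ENSRNOG00000061943, ENSRNOG00000038512, the genes of 3398 and 1333 counted bases and the 3 that rose from low levels.

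**Figure D4:**
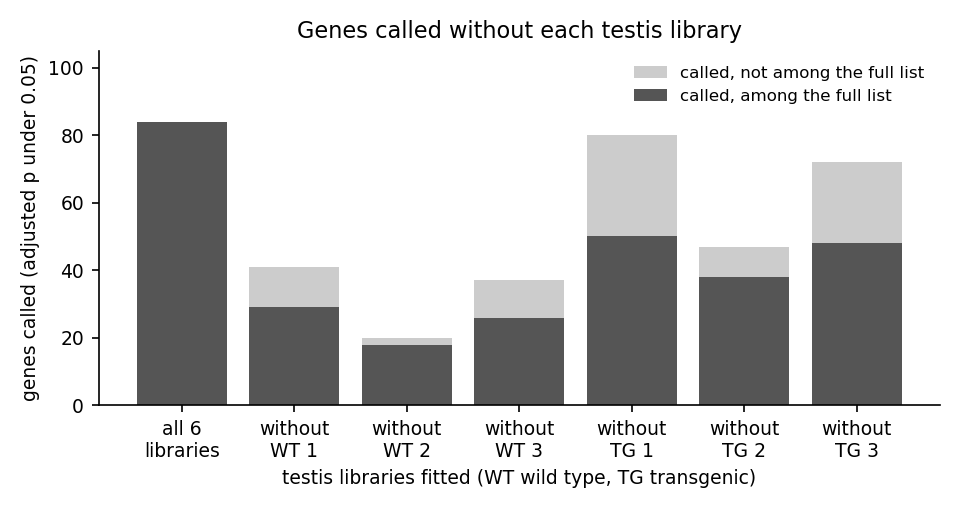
Number of genes called at an adjusted p under 0.05 (vertical axis) with all 6 testis libraries and without each of them (horizontal axis), split into calls among the 84 of the full comparison (dark) and other calls (light). The bar is lowest without wild-type replicate 2, at 20 calls, and highest of the reduced fits without transgenic replicate 1, at 80 calls with 50 among the 84.

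Large differences were not always called. Of the 266 tested genes that differed by at least 2-fold, 210 were not called, 96 higher and 114 lower in transgenic testis, and in 81 of these the groups overlapped. Their median SE was 0.431 on the log2 scale, against 0.181 for the called genes of that size. The largest uncalled increase, in a gene of 161 counted bases, went from 5, 4 and 0 reads to 39, 43 and 21 reads (log2 difference 3.29, SE 0.63, limma adjusted p = 0.094). It was called with array weights (adjusted p = 0.0467) and with all 12 libraries in 1 limma fit (0.00854). The largest uncalled decrease, in a gene of 279 counted bases, went from 5, 30 and 60 reads to 0, 3 and 2 reads, with wild-type libraries that differed widely among themselves (log2 difference -2.77, SE 0.75, limma adjusted p = 0.22).

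Brain libraries from the same genotypes were set beside the called genes. The labels do not say whether testis and brain libraries came from the same rats, so the tissues may not be independent. In 24 of the 84 (28.6%) the brain mean was above the testis mean, against 42.9% of all tested genes. At most 3 reads over the 6 brain libraries were found for 13 of the 84 (15.5%), 11 of them lower and 2 higher in transgenic testis, against 8.8% of all tested genes. Wild-type brain replicate 2 held 203 transcripts abundant in testis and nearly absent from brain at 1.59% of their testis level, against at most 0.33% in another brain library. Over the other 5 brain libraries the figures were 17 of the 84 (20.2%) and 11% of all tested genes. These shares describe the list and were not tested.

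For the 44 called genes that also averaged 1 FPKM or more in brain, the genotype difference in testis could be set against that in brain. The difference between the tissues was itself called by limma for 26 of them, 13 in each direction, against 0.421% of all genes tested in both tissues. The 44 were picked by their testis difference, which is part of the difference between the tissues, so nothing is read from this count.

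Of the 84 genes, 44 reached the filter in brain, and 4 of these were also called there, each in the same direction as in testis. In brain 0.116% of all genes tested were called. The 4 included ENSRNOG00000061943, with log2 differences of 3.71 in testis and 2.07 in brain (limma adjusted p = 0.039 in brain), and the gene of 3398 counted bases without a transgenic read, with -2.88 and -2.44 (adjusted p = 0.039 in brain). A gene of 498 counted bases fell from 33.7 ± 7.18 to 6.71 ± 1.75 FPKM in testis and from 38.8 ± 6.18 to 8.57 ± 1.11 FPKM in brain (SD, n = 3), with log2 differences of -2.25 and -2.11 (limma adjusted p = 0.0084 and 0.0080). A gene of 2223 counted bases rose from between 10.6 and 11.6 FPKM in the wild-type libraries to 34.0 ± 10.4 FPKM in testis, and from 18.1 ± 1.48 to 51.7 ± 10.5 FPKM in brain (SD, n = 3), with log2 differences of 1.54 and 1.47 (limma adjusted p = 0.023 and 0.024). Its testis call was lost with no filter on low values (limma adjusted p = 0.0572) and without an intensity trend (0.0536). It was also lost without wild-type replicate 1, 2 or 3 or transgenic replicate 2 (adjusted p of at most 0.108). Of the 4 brain calls, that of the gene of 498 counted bases held in 9 of 9 alternatives (adjusted p of at most 0.0387). The brain call was lost for ENSRNOG00000061943 when any 1 of the 6 brain libraries was left out or with a pseudocount of 0.1 (0.059 to 0.269). For the gene of 3398 counted bases it was lost without transgenic brain replicate 1, 2 or 3 or with a pseudocount of 0.1 (0.116 to 0.16). Without any 1 wild-type brain library the mean of that gene no longer reached the filter. For the gene of 2223 counted bases the brain call was lost when any 1 brain library other than transgenic replicate 1 was left out. It was also lost without an intensity trend (0.0574 to 0.114 over these fits).

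Several called genes were as high or higher in brain than in testis and differed by little between genotypes there. A gene of 705 counted bases rose in testis from 1.68, 2.04 and 1.07 FPKM to 11.2, 13.1 and 7.22 FPKM, while its brain means were 10.6 ± 1.37 FPKM in wild-type and 10.6 ± 0.231 FPKM in transgenic rats (SD, n = 3). Its testis call was lost without wild-type replicate 1 or 2, with an adjusted p of at most 0.0572. A gene of 3068 counted bases fell in testis from 2.1, 2.21 and 2.16 FPKM to 0.324, 0.286 and 0.263 FPKM, and its brain means were 39.7 ± 0.803 and 40.7 ± 3.85 FPKM (SD, n = 3). Its testis call was lost without wild-type replicate 1, 2 or 3, with an adjusted p of at most 0.0738. In both genes the testis groups were well separated and the brain groups overlapped.

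The counted lengths of the called genes ran from 102 to 11291 bases, with a median of 1762 against 1979 for all tested genes. Genes under the filter numbered 11336, of which 1392 had no read in any testis library. The filter passed through a well-filled range, with 335 genes at 0.9 to 1 FPKM outside it and 301 at 1 to 1.1 FPKM inside it. When every gene with a read in testis was tested, 58 of 24516 were called, 48 of them among the 84 and the other 10 with a mean under 1 FPKM.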

How the data were processed

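RNA from brain and testis of wild-type and hDNMT3A rats was sequenced from Illumina TruSeq libraries of total RNA, per the labels' protocols. The authors deposited 1 table of FPKM values with 1 column per library. The submitters' processing notes name Bowtie 1.0.1 and Rnor_6.0, the rat genome build. Which annotation and counting tool were used, and how strand and reads that fit several genes were treated, is not given in the sources used here. Values of overlapping genes and near-identical copies are therefore uncertain. FPKM are shares of a library, so a rise of abundant genes lowers the rest.

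Within a gene the FPKM values rise in steps of 1 read, which gave back the reads and counted lengths. In 100% of the 25908 genes the 12 values were whole numbers of reads within 0.002, for lengths of up to 60000 bases. After moving the values of 2000 genes by about 1%, 0% came out whole. The reads in listed genes made up at least 99.987% of each total, so the mapped depth is not known. Where all reads of a gene share a common factor, its counted length and reads are lower bounds. Within a genotype, pairs of libraries had a mean chi-square between 5.11 and 14.9 per gene, beyond sampling noise, and each library counted as 1 sample. Counting intervals (95%, exact Clopper-Pearson on the reads of both groups) and the floor of 3 reads hold for counting error alone, because PCR copies cannot be told from separate molecules here.

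Genotypes were compared with limma 3.58.1 in R 4.3.3 on log2(FPKM + 0.5), with an intensity trend and no covariate, two-sided, over genes whose 6 testis values averaged 1 FPKM or more. Calls needed a Benjamini-Hochberg adjusted p under 0.05 over all genes tested. On this scale, fold changes of genes with low FPKM come out too small. The difference between tissues was fitted over all 12 libraries as separate samples, with no term for the animal. If testis and brain came from the same rats, its p-values ignore that pairing. An exact permutation test of 3 against 3 libraries cannot go below p = 0.1 and was not used. The fit was tested on simulated data. Python 3.11.15, numpy 2.4.6, pandas 2.3.3, scipy 1.17.1 and matplotlib 3.10.9 were also used. Alternatives changed the pseudocount, filter, scaling, trend, weights, threshold, libraries fitted and replicate term, or used voom on the recovered reads.

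The comparison, the gene lists and the tests were chosen with earlier results of these data known. The lists of pathways and cell type markers could not be used without gene names. The rule for printed identifiers was the 2 largest called changes in each direction on log2(FPKM + 0.5). Genes given by length were chosen after their values were seen.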

Additional observations from a re-analysis of the deposited data

Results flagged for a closer look

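A difference between the tissues in the effect of genotype drew attention to 2 of the genes printed by identifier. For ENSRNOG00000013389 the testis difference was lower than the brain difference by 3.74 on the log2 scale, as testis minus brain -3.735 (limma adjusted p = 0.0079), and this call held in each of 15 alternatives, including those without each of the 12 libraries, with adjusted p from 0.00077 to 0.0305. For ENSRNOG00000061943 the testis difference was higher than the brain difference by 1.642 (limma adjusted p = 0.038). It was not called in 11 of 15 alternatives, with an adjusted p of 0.0514 to 0.44 there, among them the pseudocount of 0.1 and the fits without any brain library, without any transgenic testis library or without wild-type testis replicate 3. Both genes were picked by their testis difference, which is part of the difference between the tissues, so these calls are not independent of that choice. The alternatives of these tissue differences, and those of the brain calls in the report, were chosen after seeing the data.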

How the results depend on the processing

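The count of 84 calls fell to 51 with a mean filter of 5 FPKM, where 9109 genes were tested, and to 39 with the replicate block. It rose to 196 with array weights, 247 with all 12 libraries in 1 fit, 199 at an adjusted p under 0.1 and 190 with voom. Leaving out 1 library gave 20 to 80 calls. It stayed within 1.5 times of 84 with no filter (58), with pseudocounts of 0.1 (80) and 1 (87), with median-ratio scaling and quantile normalization (82 each) and without a trend (73). Of the calls in these alternatives, 84 of the original remained with array weights, 79 with voom, 73 with 12 libraries, 62 without a trend and 34 with the replicate block. The replicate numbers do not pair the libraries by the labels. Deviations of same-numbered libraries correlated at 0.047, 0.058 and 0.107, and 6 of 6 libraries correlated best with their own number. Each pair is counted from both sides there and the correlations are small. This is at most a weak hint from the data, not the design. With the block, ENSRNOG00000013389 and the gene of 550 counted bases were no longer called (adjusted p = 0.0632 each), nor was that of 3068 counted bases (0.0667), while the uncalled gene of 161 counted bases was (0.0322). Lower calls outnumbered higher ones with all libraries (46 against 38), but not with all 12 libraries in 1 fit (119 against 128) or without wild-type replicate 1, 2 or 3 (18 against 23, 10 against 10, 17 against 20). Without transgenic replicate 2 the split was 30 against 17. Of the 84 genes, 16 were called in every alternative at the main threshold that tested them. None of the 29 genes run under the alternatives changed direction in one that tested it. The cause of these shifts was not tested. The gene lists were not analysed under any alternative because the identifiers carry no names.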
